A study of Mus musculus with 23 samples.

Results

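Jun, Fosb, Maff, Egr2, Egr3, Klf4 and Dusp2 are immediate early response genes, and they are 7 of the 754 genes that were measured in 23 mouse left lungs with a NanoString myeloid panel. They were taken by name, with earlier results of these data known. All 7 were above the floor of the assay in at least 1 lung, and all 7 were among the 711 genes that were tested. The accession of each probe's target belonged to the gene of that name in the RefSeq table.

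The study asked how chronic instillation of organic dust acts on the lung of wild-type (WT) and Fat-1 mice. The Fat-1 transgene encodes a nematode desaturase that makes omega-3 from omega-6 fatty acids. The sources used here do not give the strain background, the promoter of the transgene or the age of the mice. All mice had 14 instillations, either of dust extract or of its saline vehicle, and all lungs had been lavaged before the left lobe was removed, so cells washed out of the airways were not in the sample. By the code on each extract 13 lungs had dust, namely 4 of WT females, 3 of WT males and 3 of each sex of Fat-1, and 10 had saline, namely 2 of females and 3 of males in each genotype. The extracts carried 2 dates of extraction, called day 1 (8 dust and 4 saline lungs) and day 2 (5 dust and 6 saline lungs). Each lung came from its own mouse.

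Values are probe counts that the authors multiplied by a factor for each lung, and they are called scaled counts here. Counts under 20 are listed as 20 whatever the factor, so a value of 20 is a bound and not a level. In lungs with a factor below 1, scaled counts under 20 are listed as 20 too. The fits took all of these as 20. The factor ran from 0.682 to 4.21, and 20 raw counts therefore stood for a scaled count of up to 84.3 in the lung with the highest factor. Recovered counts ran from 110453 to 812429 per lung. In the 4 saline lungs of day 1 the factor was 1.93 to 4.21 and 136 to 232 genes were at the floor, and 2 of those lungs had a factor above 3. Genotype, sex or exposure differed between the code and the other labels for 4 lungs. They were Fat-1 female saline lung 1 of day 1, Fat-1 male dust lung 1 of day 1, Fat-1 male saline lung 2 of day 2 and WT male saline lung 2 of day 2. The first 3 of these are WT by title and by characteristics, and the last is WT female dust by title alone. WT female saline lung 1 of day 2 and Fat-1 female dust lung 2 of day 1 stood apart on technical measures.

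Immediate early genes are transcribed within minutes of a stimulus from factors that are already present in the cell, and their messages are short-lived. Jun and FosB proteins pair through leucine zippers to form AP-1, which binds DNA at genes of growth and inflammation, and MafF is a small Maf protein that pairs with other zipper proteins and lacks a domain for activating transcription. Egr2 and Egr3 are zinc finger factors, Klf4 is a Krueppel-like zinc finger factor of epithelium, endothelium and monocytes, and Dusp2 is a nuclear phosphatase that switches off MAP kinases. In the lung these genes respond to microbial products, cytokines, stretch and the handling of tissue.

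RefSeq promoter windows (build GRCm38.p6) were found for 6 of the 7 genes, with 3 windows for Maff, 5 for Egr2 and 1 for each of the others. In the 250 bases before each start site, both strands were searched for the cyclic AMP response element TGACGTCA, the AP-1 site TGANTCA, the EGR site GCGNGGGCG, the TATA box TATAAA, and the CArG box and NF-kappa-B site. Among all 32851 windows of this length, 1.55% held the response element, 6.75% the AP-1 site, 4.7% the EGR site, 12.4% the TATA box, 1.47% the CArG box and 7.25% the NF-kappa-B site. The sequences below show the promoters of genes that were lower in dust lungs (Jun, Fosb and Klf4) and of genes that were higher (Dusp2, Maff and Egr2). They are written 5′ to 3′ on the strand of the gene, with matches in capitals.
Jun, chr4:95052223-95052472, minus strand: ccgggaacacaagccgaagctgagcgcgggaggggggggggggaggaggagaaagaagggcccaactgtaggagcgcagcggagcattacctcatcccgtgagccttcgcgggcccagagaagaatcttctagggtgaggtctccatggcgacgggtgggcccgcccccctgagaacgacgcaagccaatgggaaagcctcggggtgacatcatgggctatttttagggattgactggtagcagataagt
Fosb, chr7:19310119-19310295, minus strand: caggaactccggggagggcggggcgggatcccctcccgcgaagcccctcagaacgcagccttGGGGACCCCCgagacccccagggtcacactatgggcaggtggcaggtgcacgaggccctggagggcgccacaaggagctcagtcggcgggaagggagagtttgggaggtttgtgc
Klf4, chr4:55532476-55532725, minus strand: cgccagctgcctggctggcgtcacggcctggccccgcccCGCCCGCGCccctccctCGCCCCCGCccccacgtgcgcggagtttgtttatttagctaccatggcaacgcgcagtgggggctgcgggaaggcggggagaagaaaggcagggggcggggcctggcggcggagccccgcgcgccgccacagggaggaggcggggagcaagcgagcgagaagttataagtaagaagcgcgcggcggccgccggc
Dusp2, chr2:127335909-127336158, plus strand: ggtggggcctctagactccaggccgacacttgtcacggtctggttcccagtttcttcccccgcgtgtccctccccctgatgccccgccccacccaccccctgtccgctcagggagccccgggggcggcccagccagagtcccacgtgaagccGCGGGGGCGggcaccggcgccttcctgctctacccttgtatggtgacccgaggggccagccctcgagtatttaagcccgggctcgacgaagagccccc
Maff, chr15:79347480-79347509, plus strand: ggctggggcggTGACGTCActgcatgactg
Egr2, chr10:67537787-67537816, plus strand: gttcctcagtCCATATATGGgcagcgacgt

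The capitals mark an NF-kappa-B match in Fosb, 2 EGR matches in Klf4 (both on the other strand), an EGR match in Dusp2, the cyclic AMP response element in Maff and a CArG box in Egr2. For Fosb the 177 bases outside the annotated gene are shown, and the rest of its window held an EGR match. Maff and Egr2 have start sites within their annotated genes, so only 30 bases around the match are given. The response element lay in 1 of the 3 Maff windows, which also held an EGR match, and a CArG box lay in 4 of the 5 Egr2 windows. All but 1 of these 4 windows overlap and hold the same box, so the count is of windows and not of separate sites. NF-kappa-B matches lay in another Maff window and in the remaining Egr2 window, which are not shown. Jun's window held none of these letters. A match is a description of the letters and was not tested as a binding site.

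The first comparison asked whether each gene differed by exposure, with genotypes and sexes pooled. All 7 passed limma's test. Dusp2, Egr2, Egr3 and Maff were higher after dust, and Jun, Fosb and Klf4 were lower. Dust moved a large share of this myeloid panel, since 53.3% of the 711 genes passed (43.3% higher and 9.99% lower), and the median gene was 0.26 higher on the log2 scale. Of the calls 81.3% were higher, against 45.3% after centring each lung on its median gene, where the median over all genes was −0.13, and 68.9% on the scale of the housekeeping genes. The count of members that passed is read against that share, and the 7 genes were chosen with earlier results known. In whole lung, fewer cells of a type and less RNA per cell cannot be told apart.

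Of the AP-1 pair, Jun was at 988, 1080.4 and 1886 scaled counts in dust lungs (lowest, median, highest) and at 1069.5, 1557 and 2056 in saline lungs. Most dust lungs lay below most saline lungs, and the groups overlapped, with Fat-1 female dust lung 2 of day 1 the highest dust lung. The mean fell from 1587 ± 323 (SD, n = 10) to 1184 ± 243 (n = 13), a log2 difference of −0.38 (adjusted p = 0.00701, SE 0.11). Fosb, the partner of Jun, was at 20, 51.5 and 76.4 in dust and at 52.6, 70.7 and 131 in saline. The lung at 20 was again Fat-1 female dust lung 2 of day 1, and the groups overlapped. Its mean fell from 84.0 ± 31.8 to 49.7 ± 16.8, a log2 difference of −0.73 (adjusted p = 0.0179, SE 0.24). Without Fat-1 female saline lung 1 of day 1 it was −0.60 (adjusted p = 0.0635), and with the same floor of 84.3 in every lung it was −0.18 (adjusted p = 0.0893). No dust lung exceeded that floor, so all dust lungs then share 1 value.

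Klf4 was the other gene that fell. It was at 521, 1011 and 1909.8 in dust lungs and at 1164, 1488 and 1951 in saline lungs, so the lowest dust lungs had less than any saline lung while the highest reached the saline range. The mean fell from 1536 ± 271 to 1031 ± 417, a log2 difference of −0.62 (adjusted p = 0.00800, SE 0.18). Klf4 is expressed in endothelium, and most but not all of the 9 endothelial markers on the panel were lower too. Their summed level was 3115 to 10590.1 in dust lungs and 9886 to 13191 in saline lungs, 6 of the 9 were called lower and 2 higher, and none was at the floor throughout. The part of these cells in the change of Klf4 was not tested.

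Maff, the small Maf gene, was at 101, 171 and 281 in dust lungs and at 99.6, 124 and 160.3 in saline lungs. The upper dust lungs exceeded every saline lung and the lower ones lay among them. Its mean rose from 128 ± 20.5 to 167 ± 54.1, a log2 difference of 0.38 (adjusted p = 0.0187, SE 0.13). This direction rests on the scaling, because after centring each lung on the median of the 470 genes above the floor in every lung the difference was −0.01 (adjusted p = 0.944). It was 0.24 (adjusted p = 0.135) on the scale of the housekeeping genes, 0.35 (adjusted p = 0.0940) without the 4 lungs whose labels disagree and 0.30 (adjusted p = 0.0676) without the 2 that stood apart.

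The 2 EGR genes were low throughout. Egr2 was at 20, 45.3 and 68.2 in dust lungs and at 20, 20.9 and 40.8 in saline lungs, with 2 of 13 dust lungs and 5 of 10 saline lungs at the floor. Its counts above the floor were only 21 to 57 before scaling. The mean was 46.0 ± 14.4 after dust and 27.4 ± 9.42 after saline (log2 fold change 0.72, SE 0.21, adjusted p = 0.00832), and with the same floor in every lung the difference was 0 by construction, since no lung exceeded it. Without the 2 lungs with a factor above 3 it was 0.59 (adjusted p = 0.0527). Egr3 was at 45.7, 65.1 and 137 in dust lungs and at 20, 39.9 and 102 in saline lungs, 3 of which were at the floor. The groups overlapped, with 4 saline lungs above the lowest dust lung, the highest of them 2 lungs of day 1 at 90.5 and 102. Its mean was 77.7 ± 31.4 after dust and 47.6 ± 28.9 after saline, a log2 difference of 0.80 (adjusted p = 0.0110, SE 0.25), against 0.11 (adjusted p = 0.318) with the same floor in every lung and 0.62 (adjusted p = 0.0754) without the 2 lungs with a factor above 3. After median centring Egr2 was at 0.33 (adjusted p = 0.183) and Egr3 at 0.41 (adjusted p = 0.126).

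Dusp2, the phosphatase of the group, had the largest difference of the 7. It was at 43.0, 109.9 and 253 in dust lungs and at 20, 38.6 and 60.4 in saline lungs, 3 of which were at the floor. Each dust lung of day 1 exceeded each saline lung, and the dust lungs of day 2 overlapped them. The mean rose from 38.6 ± 15.1 to 123 ± 66.7, a log2 difference of 1.51 (adjusted p = 0.00125, SE 0.34). With the same floor in every lung, which gives all saline lungs 1 value, it was 0.56 (adjusted p = 0.0317). The lungs of cartridge 2 alone gave 0.83 (adjusted p = 0.216). Cartridges are numbered here by the stage position recorded for each lung, and the names of the runs number them the other way. Cartridge and day nearly coincide, since 10 of the 12 lungs of day 1 were on cartridge 1 and 9 of the 11 of day 2 on cartridge 2. Neutrophil and macrophage markers were also higher after dust, on a panel where 43.3% of all genes were. The summed level of 14 neutrophil markers was 2373 to 44162 in dust and 2029 to 4034 in saline, with 9 of the 12 tested called higher. That of 16 macrophage and monocyte markers was 23829.6 to 70996 against 14652 to 30679, with 15 called higher. Called higher too were 3 of 5 fibroblast and smooth muscle markers and 3 of 6 T and NK cell markers, with 1 of the latter lower. So were 2 of 4 B and plasma cell markers, 1 of 2 epithelial markers and the 1 erythrocyte and platelet marker. On day 2, where Dusp2 was not called, 13 of the 16 macrophage markers were called higher. The part of any of these cells in the change of Dusp2 was not tested.

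**Figure D1:**
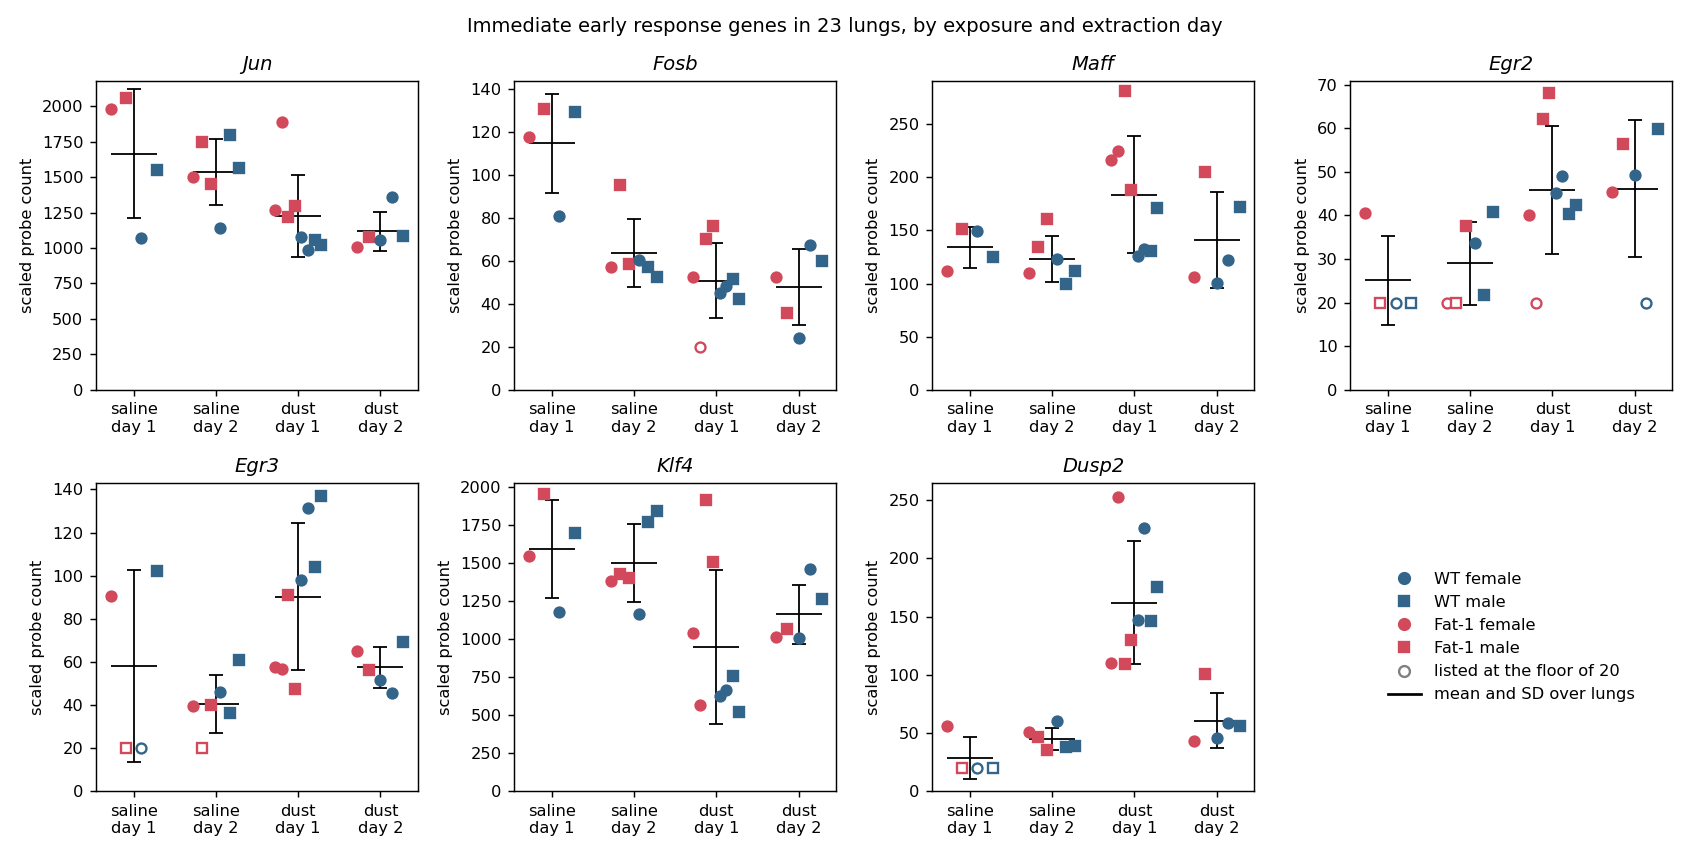
Scaled probe counts (vertical axes, linear from 0) of the 7 genes in 23 lungs by exposure and extraction day; circles are female and squares male lungs, open symbols are listed at the floor of 20, and bars give the mean and SD over lungs. Dusp2 is at 109.7 or more in all 8 dust lungs of day 1 and at 101 or less in the 5 dust lungs of day 2, while Fosb is highest in the saline lungs of day 1.

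The dust response was then measured within each extraction day. On day 1 it called 5 of the 7 genes, against 53.2% of all genes, and on day 2 it called 0 of the 7, against 13.2% of all genes. All 7 had the same sign on both days. On day 2 Jun (−0.41, adjusted p = 0.118) and Egr2 (0.70, adjusted p = 0.148) were the members with an unadjusted p under 0.05. The difference between the days itself was called for Dusp2 and for 1.69% of all genes.

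Dusp2 on day 1 was at 109.9, 253, 109.7 and 130.1 in the 4 Fat-1 dust lungs and at 147, 226, 146 and 176 in the 4 WT dust lungs. In the saline lungs of that day it was at 55.9 in 1 lung and at the floor in the other 3. The groups did not overlap, which was so for 32.2% of all genes, and the lowest dust value also exceeded 84.3, the most that 20 counts stood for in any lung. The log2 fold change was 2.54 (adjusted p = 1.12e-06, SE 0.28). With the same floor in every lung it was 0.87 (adjusted p = 4.66e-04), but all saline lungs then share 1 value, so that p-value leaves out their spread. Without the 2 lungs with a factor above 3, where the common floor is 47.3, it was 1.58 (adjusted p = 0.00115). On day 2 it was at 43.0, 46.0, 56.0, 58.5 and 101 in dust lungs and at 35.2, 38.2, 39.1, 46.7, 50.9 and 60.4 in saline lungs, which overlapped (0.33, 95% confidence interval −0.26 to 0.92, adjusted p = 0.531). The dust response was smaller on day 2 (log2 difference −2.21, adjusted p = 0.00486, SE 0.40), but the difference missed the threshold with the same floor in every lung (−0.85, adjusted p = 0.155) and without the 2 lungs with a factor above 3 (−1.86, adjusted p = 0.120).

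Among dust lungs alone, where the floor was not reached, Dusp2 was lower on day 2 than on day 1 in all 5 lungs. The means were 60.9 ± 23.3 (n = 5) and 162 ± 52.9 (n = 8), a log2 difference of −1.42 (adjusted p = 0.00662, SE 0.26). The test called 15.2% of all genes, and 1.83% did not overlap between the days. This difference passed under each of the 37 alternatives that were run, from −0.84 with the same floor in every lung to −1.71 with array weights, which count variable lungs less. Under that floor the dust lungs of day 2 share 1 value, except Fat-1 male dust lung 1 at 101. Summed neutrophil markers were 7698 to 44162 (median 24179) in the dust lungs of day 1 and 2373 to 19572 (median 5034) in those of day 2, and 7 of 12 were called lower on day 2. Macrophage markers, at 42654 to 64731 and 23829.6 to 70996, had 0 of 16 called. T and NK cell markers had 3 of 6 called lower, B and plasma cell markers 2 of 4, and the 1 erythrocyte and platelet marker was lower. Of 9 endothelial markers 3 were higher and 1 lower, and of 5 fibroblast and smooth muscle markers 1 was higher. The part of any of these cells in the lower Dusp2 was not tested. None of the other 6 genes was called between the days in dust.

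Fosb was also read by day. The difference of its dust response between the days was not called (0.86, adjusted p = 0.215). On day 1 it was at 81.0, 118, 129 and 131 in saline lungs, above all 8 dust lungs of that day, which were at 20 to 76.4. The log2 difference for dust was −1.22 (adjusted p = 0.00103, SE 0.28), and it stayed called under all 38 alternatives. With the same floor in every lung it was −0.43 (adjusted p = 1.10e-04). All dust lungs then share 1 value, so that p-value leaves out their spread. On day 2 the saline lungs were lower, at 52.6 to 95.5, and the dust lungs at 24.1 to 67.6 overlapped them (−0.37, adjusted p = 0.475). Saline lungs of day 2 and day 1 had means of 63.6 ± 15.9 (n = 6) and 115 ± 23.2 (n = 4), a log2 difference of −0.90 that missed the threshold (unadjusted p = 0.00634, adjusted p = 0.376; 0.141% of all genes called). With the same floor in every lung it passed (−0.41, adjusted p = 0.00841), but the saline lungs of day 2 then share 1 value except the highest, at 95.5. Dust lungs of the 2 days had 47.9 ± 17.8 and 50.8 ± 17.3 and did not differ beyond their spread. In order, the groups were dust of day 2, dust of day 1, saline of day 2 and saline of day 1, and only the last stood clear of its neighbour's mean by more than an SD.

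**Figure D2:**
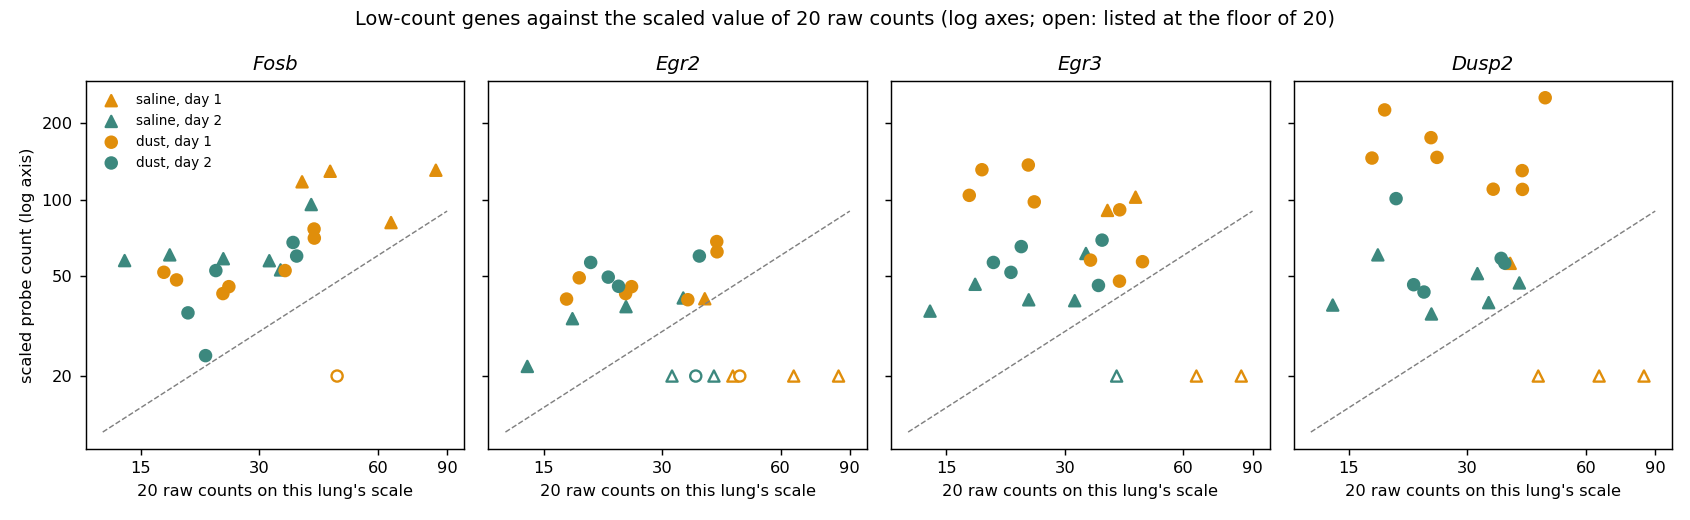
Scaled count of each low gene (vertical, log axis) against what 20 raw counts stood for in the same lung (horizontal, log axis); triangles are saline and circles dust lungs, colours give the day, open symbols are listed at the floor of 20, and the dashed line is equality. Lungs to the right of a panel could not show a low level, and of the 4 saline lungs of day 1, 3 give only bounds for Egr2 and Dusp2 and 2 for Egr3, while the 8 Dusp2 values of dust lungs on day 1 lie at 109.7 or more, above every bound.

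Klf4 on day 1 was at 521 to 758 in the WT dust lungs and at 565, 1043, 1504 and 1909.8 in the Fat-1 dust lungs, against 1180, 1547, 1694 and 1951 in saline lungs. The WT dust lungs were all below the saline lungs, and the Fat-1 dust lungs spread across both ranges. The log2 difference for dust on day 1 was −0.88 (adjusted p = 0.00597, SE 0.25) and passed under all 38 alternatives. On day 2 the means were 1161 ± 195 after dust and 1498 ± 257 after saline (−0.25, adjusted p = 0.613), with ranges that overlapped. Endothelial markers summed to 3115 to 7683 in dust lungs of day 1 and 7223 to 10590.1 in those of day 2, against 9886 to 13191 in saline lungs. Across groups Klf4 was lowest in dust of day 1, then dust of day 2, and highest in saline of day 2 and of day 1, whose means of 1498 and 1593 differed by less than their SDs of 257 and 322.

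Jun had nearly the same dust effect on both days. Its dust means were 1225 ± 291 on day 1 and 1117 ± 140.1 on day 2, and its saline means 1664 ± 455 and 1536 ± 235, so neither pair differed beyond its spread. The log2 fold changes of dust were −0.43 (adjusted p = 0.0402) and −0.41 (adjusted p = 0.118). The call on day 1 was lost without any of 10 single lungs, at −0.35 (adjusted p = 0.136) without Fat-1 female saline lung 1 and −0.35 (adjusted p = 0.141) without Fat-1 male saline lung 1.

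Maff, Egr2 and Egr3 completed the day comparison. Maff had dust means of 184 ± 55.2 and 141 ± 45.3 and saline means of 134 ± 19.3 and 123 ± 21.7 on day 1 and day 2, with dust effects of 0.40 (adjusted p = 0.0704) and 0.25 (adjusted p = 0.445). Neighbouring means in that order differed by less than an SD of the dust lungs. Egr2 had dust means of 45.9 ± 14.7 and 46.1 ± 15.7 and saline means of 25.1 ± 10.2 and 29.0 ± 9.47, with 3 of 4 and 2 of 6 saline lungs at the floor. Its dust effect on day 1 was 0.84 (adjusted p = 0.0273), and 0.60 (adjusted p = 0.256) without the 2 lungs with a factor above 3. Egr3 had dust means of 90.3 ± 34.1 and 57.5 ± 9.60 and saline means of 58.2 ± 44.3 and 40.5 ± 13.4. Its dust effects were 0.92 (adjusted p = 0.0501) and 0.52 (adjusted p = 0.447), and without Fat-1 female saline lung 1 of day 1, at 90.5, the first was 1.41 (adjusted p = 0.00366). Without the 2 lungs with a factor above 3, both at the floor, its sign turned (−0.18, adjusted p = 0.670).

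**Figure D3:**
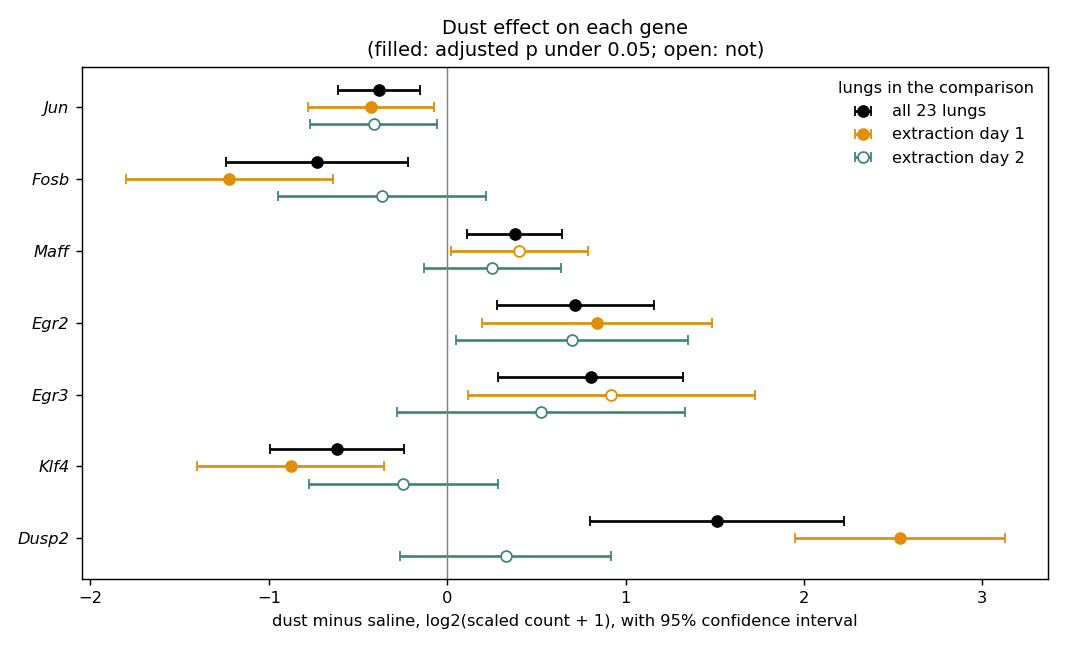
Dust minus saline on the log2(scaled count + 1) scale (horizontal axis) for each gene, over all 23 lungs and within each extraction day; points are limma estimates, bars are 95% confidence intervals, and filled points have an adjusted p under 0.05. All 7 estimates have the same sign on both days, and Dusp2 moves from 2.54 on day 1 to 0.33 on day 2.

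Within each genotype, dust called 3 members in WT lungs (dust n = 7, saline n = 5), against 35.3% of all genes, and 3 among the 6 dust and 5 saline lungs of Fat-1 mice, against 38.1%. In WT lungs Dusp2 was 122 ± 69.7 after dust and 35.5 ± 16.7 after saline (log2 difference 1.64, adjusted p = 0.0130), Egr3 rose by 0.98 (adjusted p = 0.0357) and Klf4 fell by 0.78 (adjusted p = 0.0238). All 3 calls were lost without WT female saline lung 1 of day 1, where Dusp2 was at 1.26 (adjusted p = 0.106), Egr3 at 0.69 (adjusted p = 0.219) and Klf4 at −0.77 (adjusted p = 0.0820). In Fat-1 lungs Dusp2 rose from 41.7 ± 14.3 to 124 ± 69.5 (1.38, adjusted p = 0.0337), Maff rose by 0.60 (adjusted p = 0.0172) and Jun fell by 0.45 (adjusted p = 0.0316). With extraction day as a block Dusp2 missed the threshold in Fat-1 lungs (1.28, adjusted p = 0.0510). Without the 4 lungs whose labels disagree the Fat-1 values were of similar size and none was called, with Dusp2 at 1.46 (adjusted p = 0.152), Maff at 0.55 (adjusted p = 0.137) and Jun at −0.42 (adjusted p = 0.171), and calls over all genes went from 271 to 69. Jun in WT lungs was at −0.31 (adjusted p = 0.119) and Klf4 in Fat-1 lungs at −0.46 (adjusted p = 0.167), so all 7 had the same sign in both genotypes.

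The difference of the dust response between genotypes was not called for any member (limma, 0% of genes called, 21 genes and 0 members at an unadjusted p under 0.05). Its largest values were 0.45 for Maff (95% confidence interval −0.08 to 0.99) and −0.34 for Egr3 (−1.38 to 0.69). The difference between the sexes was not called either (0% called, 14 genes and 0 members at an unadjusted p under 0.05), with Egr2 at 0.67 (−0.21 to 1.55) and Jun at −0.41 (−0.86 to 0.05), male minus female. These intervals are wide, and they do not show that genotypes or sexes respond alike.

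Fat-1 and WT lungs were then compared directly. After dust 0% of genes passed, with 22 genes and 1 member, Maff, at an unadjusted p under 0.05. Maff was at 106 to 281 in Fat-1 and at 101 to 172 in WT dust lungs, and the means of 203 ± 57.4 (n = 6) and 136 ± 26.1 (n = 7) gave a log2 difference of 0.51 (adjusted p = 0.979). With limma's array weights Maff (0.68, adjusted p = 0.00835) and Klf4 (0.93, adjusted p = 0.00359) passed, in a fit that called 97 of all 711 genes, and Maff also did when the Fat-1 female dust lung of day 2 was left out (0.69, adjusted p = 0.0169). After saline 0% of genes passed, with 10 genes and 1 member, Jun, at an unadjusted p under 0.05. Jun was at 1749 ± 273 in Fat-1 and 1425 ± 308 in WT saline lungs, a log2 difference of 0.36 (adjusted p = 1.00).

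The genotypes were also compared after dust within each day, in a model with cells for genotype, exposure and day that was added after the data were seen. On day 1 Jun was at 1219, 1266, 1295 and 1886 in Fat-1 and at 988 to 1074 in WT dust lungs, without overlap. Maff, at 188, 216, 225 and 281 against 126 to 171, did not overlap either. Egr3 ran the other way, at 47.5, 56.7, 57.6 and 91.0 in Fat-1 and at 97.9, 104, 131 and 137 in WT lungs. Groups did not overlap for 9.7% of all genes, and the model called 0.141% of genes and 0 members. Its values were 0.43 for Jun (adjusted p = 0.262), 0.70 for Maff (adjusted p = 0.112), −0.91 for Egr3 (adjusted p = 0.360) and 0.84 for Klf4 (adjusted p = 0.112). On day 2, with 2 Fat-1 and 3 WT dust lungs, all 7 genes overlapped and 0% of genes were called (Klf4 −0.31, Jun −0.17). The difference between the days was −1.14 for Klf4 (95% confidence interval −1.99 to −0.30, adjusted p = 0.211; 0% of genes called). Of the dust lungs, the highest Klf4 and Maff values belong to Fat-1 male dust lung 1 of day 1, which is WT by title and characteristics. Neutrophil markers on day 1 summed to 7698 to 34129 in Fat-1 and 15423 to 44162 in WT dust lungs, and macrophage markers to 42654 to 46507 and 52844 to 64731. Endothelial markers summed to 3115 to 7683 (median 7293) in Fat-1 and 4605 to 6111 (median 5161) in WT. Their part in these differences was not tested.

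**Figure D4:**
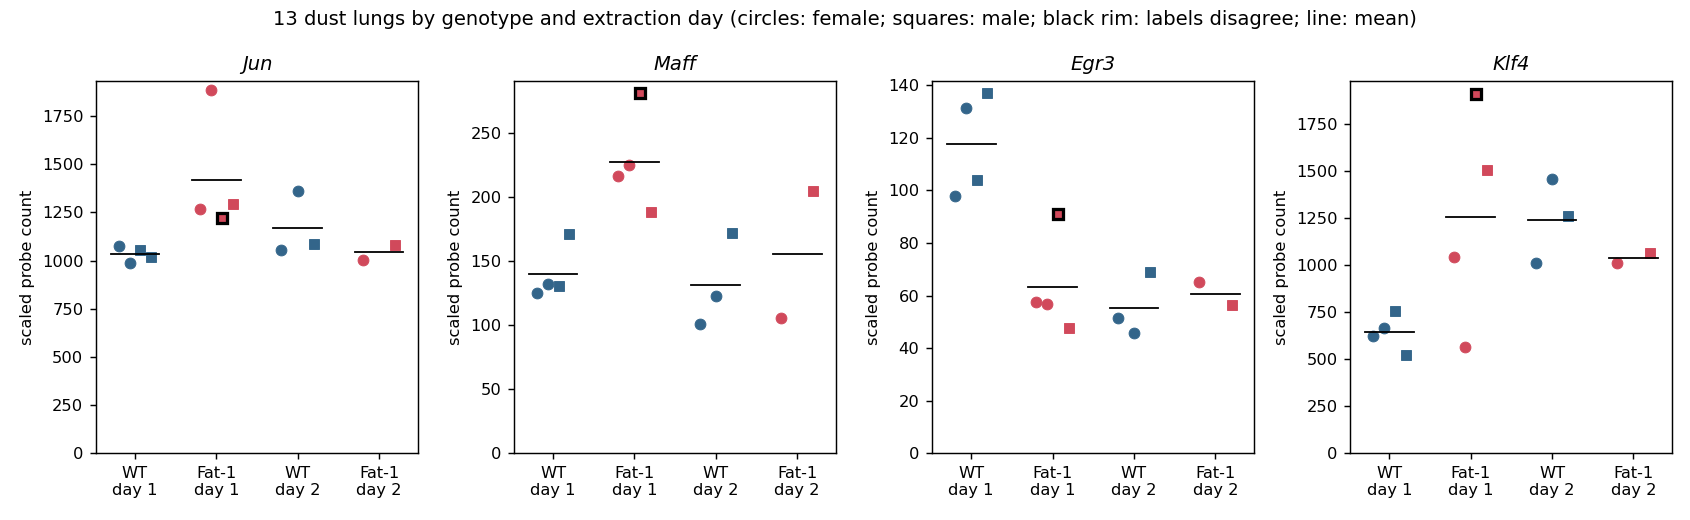
Scaled counts (vertical axes, linear from 0) of Jun, Maff, Egr3 and Klf4 in the 13 dust lungs by genotype and extraction day; circles are female and squares male lungs, lines are means, and a black rim marks the lung whose labels disagree. On day 1 the Fat-1 lungs are above the WT lungs for Jun and Maff and below them for Egr3, and on day 2 they overlap for all 4 genes.

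Other genes of the same kind were read from lists chosen for this account. Among 19 other early transcription factors and feedback genes, dust called 9 higher and 0 lower (median 0.36 against 0.26 for all genes), a share near the 43.3% of all genes that were higher. Tnfaip3, which restrains NF-kappa-B, had means of 771 after dust and 246 after saline (adjusted p = 1.52e-04). Socs3, a brake on cytokine receptors, rose by 1.61, the zipper repressor Nfil3 by 1.66, Rgs1, a regulator of G protein signalling, by 1.67, and Nfkbiz, a nuclear I-kappa-B protein, by 0.66. On day 1 this list had 10 higher and 0 lower, against 41.6% of all genes higher, and on day 2 it had 2 higher, among them Nfkbiz, and 0 lower, against 12.8%.

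Early secreted and surface genes had a higher median. Of 25 tested, 16 were higher and 1 lower (median 1.26), against 43.3% of all genes higher. On day 1, 18 were higher and 1 lower, against 41.6% higher, and on day 2, 4 were higher and 0 lower, against 12.8%. Cxcl3 rose by 4.11, Ccl3 by 3.14, Cxcl2 by 2.68, Il1a by 2.31, Ccl20 by 1.83 and Plaur, the urokinase receptor, by 0.87. Cxcl2 and Il1a were the list's genes, with Dusp2 outside it, whose dust response was smaller on day 2 by the test of the difference, by 2.95 (adjusted p = 0.0176) and 2.45 (adjusted p = 0.0424) on the log2 scale. Most calls of this test over all genes were lost with the same floor in every lung, and also without the 2 lungs with a factor above 3.

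In the MAP kinase pathway, on which Dusp2 acts, 4 of 12 genes were higher and 2 lower, against 43.3% and 9.99% of all genes. The median was 0.18, below the 0.26 of all genes. Mapk13, a p38 kinase, rose by 1.12 (adjusted p = 9.29e-05), Mapk11, another p38 kinase, by 0.36, and the kinases Map2k1 and Map2k2 by 0.35 and 0.30. Rasgrf2, a Ras exchange factor, fell by 0.98 (adjusted p = 0.00341) and Spry2, a Sprouty inhibitor of growth factor signalling, by 0.53. Of the 5 other leucine zipper factors on the panel 3 rose, against 43.3% of all genes. Batf rose by 1.36 (adjusted p = 1.90e-04), Batf3 by 1.05 (adjusted p = 0.00124) and Cebpb by 0.86 (adjusted p = 1.61e-04), while Cebpd was at 0.34 (adjusted p = 0.428) and Cebpa at −0.03 (adjusted p = 0.870).

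The 7 genes did not vary as 1 set. As a description over 23 lungs, which share panel and scaling, Pearson's r was 0.67 for Fosb with Klf4, and 0.62 once the mean of each exposure and day was taken off both. Dusp2 with Klf4 had −0.72 (−0.44 within exposure and day), and Egr2 with Egr3 had 0.55 (0.38). Jun and Fosb, whose proteins form AP-1, had 0.40, and 0.00 within exposure and day. Among 639 genes outside the group with 12 or more lungs above the floor, those most like the mean of the 7 were Plaur (r = 0.68), H2-Q10 (0.68), Areg (0.67), Cebpd (0.65), Il1b (0.65) and Itga5 (0.65).

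Single members had closer neighbours. Dusp2 was most like Clec5a (r = 0.93), a myeloid lectin receptor, and Csf1 (0.92), the macrophage growth factor. Klf4 was most like Fzd4 (0.89), a Wnt receptor, and Angpt1 (0.87), a ligand for the endothelial receptor Tek. Fosb was most like Ptpn14 (0.82) and Rapgef4 (0.79), Egr2 like the chitinase-like genes Chil3 (0.80) and Chil4 (0.80), and Egr3 like Was (0.80) and Tlr9 (0.80). Maff was most like Cxcl5 (0.74) and Il6 (0.73), and Jun like Kitl (0.72) and Nr4a2 (0.68).

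**Figure D5:**
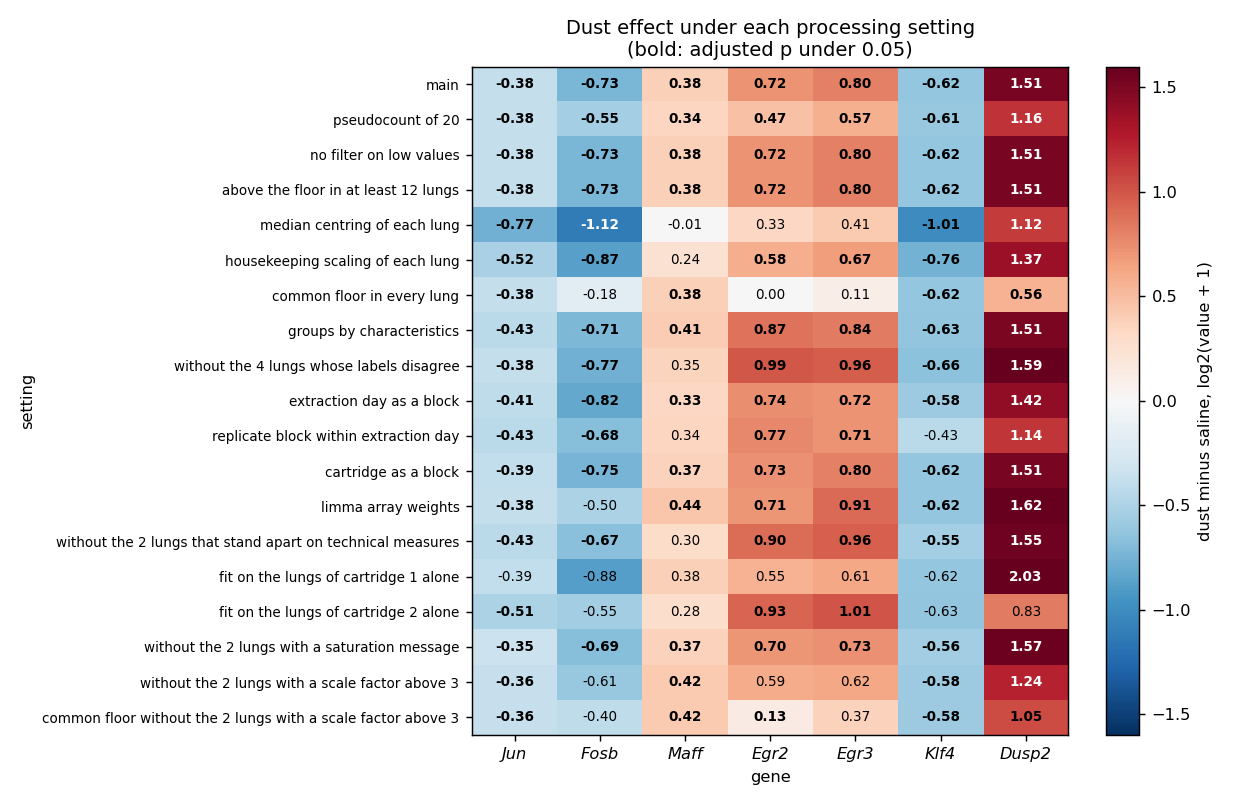
Dust minus saline on the log2 scale (colour and printed value) for each gene, in columns, under each way of processing the values, in rows; bold values have an adjusted p under 0.05, and settings that leave out single lungs are not drawn. Jun, Fosb, Klf4 and Dusp2 keep their sign in every row, Maff is at −0.01 after median centring, and Egr2 is at 0 with the same floor in every lung.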

How the data were processed

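Left lung RNA of 23 mice was counted on a NanoString nCounter mouse myeloid panel. The authors deposited a normalised signal: each lung's probe counts times 1 factor. Counts or scaled counts under 20 are listed as 20, without the factor, as the values themselves show. The sources used here do not give software, reference genes or a genome build. The factor was read from the spacing of values, and because low counts are hidden no count model was fitted. Counting error at 20 counts is 22.4% of the value.

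Tests used limma 3.58.1 (R 4.3.3) on log2(value + 1), with empirical Bayes, two-sided, with Benjamini-Hochberg adjustment over the 711 genes that exceeded the floor in any lung, called at 0.05. Means of 8 groups of genotype, sex and exposure (15 residual degrees of freedom) gave the comparisons over both days, and cells of exposure by day with genotype and sex as terms (17) gave those by day. Groups follow the code of each extract (date, genotype, sex, exposure and replicate, per the labels' protocols); 19 lungs have agreeing labels and 4 do not. A common floor raises all values to at least 84.3, or to at least 47.3 without the 2 lungs with a factor above 3. Lungs below it then share 1 value, so tests under it leave out their spread. Named beside the members were, of each list, the 6 genes with the smallest p in dust against saline (all genes of lists with 6 or fewer), and the genes of highest Pearson r; 1 gene that this rule names is not reported here. Members, lists and tests were chosen with earlier results of these data known. The model was run on simulated data with normal noise, without the floor or the factor per lung. That run cannot show how the floor and the factor bear on the calls. RefSeq gave promoters and gene identities. Tables and plots were made with Python 3.11.15.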

Additional observations from a re-analysis of the deposited data

Results flagged for a closer look

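In 9 of 63 groups of 4 to 10 lungs, 1 lung lay far from the others for its group's range by Dixon's test, and chance flags about 1 in 20 groups. The groups share lungs and are not independent. Jun was highest by a wide gap in Fat-1 female dust lung 2 of day 1, at 1886 scaled counts, both among the dust lungs of day 1 and among Fat-1 dust lungs. It was also highest by a wide gap in WT female dust lung 2 of day 2, at 1361, among the dust lungs of day 2 and among WT dust lungs. Fosb stood out among the saline lungs of day 2 in Fat-1 male saline lung 1, at 95.5. Fat-1 female saline lung 1 of day 1, which is WT by title and characteristics, was the only saline lung of day 1 above the floor for Egr2 (40.5) and Dusp2 (55.9). In the other 3, 20 counts stood for 45.4, 64.8 and 84.3, so their order is not known and the gap has no meaning. The same lung was listed highest for Egr3 (90.5) among Fat-1 saline lungs, 2 of which were at the floor. Dusp2 stood out among the dust lungs of day 2 in Fat-1 male dust lung 1, at 101, a lung that carried a saturation message.

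The dust response of Dusp2 differed between the days by the test of the difference (−2.21, adjusted p = 0.00486). It passed without each of the 23 lungs in turn, from −2.53 to −2.05.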

How the results depend on the processing

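Counts are of members, with the count over all 711 genes in parentheses. For dust against saline the 7 calls (379) became 4 with median centring (446), 4 with a common floor (339), 4 without the 2 lungs with a factor above 3 (322), 1 in cartridge 1 alone (205) and 3 in cartridge 2 alone (187); they were 6 to 7 without single lungs. Maff turned to −0.012 with median centring. The 3 calls in WT (251) became 1 with a common floor (183), 1 without the 4 lungs whose labels disagree (139), 1 with the replicate block (187), and 0 without the lungs with a factor above 3 (105; 97 with a common floor too); without single lungs they were 0 to 4. The 3 calls in Fat-1 (271) became 1 with groups by characteristics (167), 0 without the 4 lungs (69), 5 with cartridge as a block (261), 1 without the lungs with a saturation message (182) and 1 without the lungs with a factor above 3 (209), and 1 to 5 without single lungs. Fat-1 against WT in dust, with 0 (0), had 2 with array weights (97) and 0 to 1 without single lungs. Day 2 against day 1 in dust, with 1 (108), had 2 with cartridge as a block (180), 3 with array weights (328) and 1 to 2 without single lungs, and in saline, with 0 (1), it had 1 with a common floor (3; 5 without the lungs with a factor above 3). Dust on day 1, with 5 (378), had 3 to 6 without single lungs, and on day 2, with 0 (94), it had 1 with median centring (65), 2 with array weights (173), 1 without the 2 lungs that stand apart (127) and 0 to 2 without single lungs. The difference between days, with 1 (12), had 0 with a common floor (1), 0 without the lungs with a factor above 3 (1) and 0 with both (2). Causes were not tested. Calls for the genotype and sex differences and for Fat-1 against WT in saline stayed at 0 under every alternative run. Of 64 member results that were not called, 38 changed sign and 15 were called under some alternative.

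Same-numbered lungs of a day (65 pairs, r from −0.41 to 0.70, median −0.03) deviated together no more than other pairs of that day (49 pairs, −0.50 to 0.73, median −0.02). Of 23 lungs, 10 were most like one with their own number, and the number to be had by chance was not worked out. With the replicate block, 277 genes and 5 members were called in dust against saline, where Maff was at 0.34 (adjusted p = 0.0547) and Klf4 at −0.43 (adjusted p = 0.0720). The fits within cartridges, the lungs left out for factor or saturation and the model by genotype and day were chosen after seeing the data. Depth limits Egr2, Egr3, Fosb and Dusp2 most, since their counts lie near the floor.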
